A study of Homo sapiens with 48 samples.

Results

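The genes described here are 10 members of the insulin-like growth factor (IGF) axis, among 29744 genes in the count table: the ligands IGF1 and IGF2, the receptor IGF1R, the binding proteins IGFBP2 to IGFBP7 and the protease PAPPA. They were chosen by gene symbol, with earlier results of these data known, and the measured value that the choice used was detection of the transcript. All 10 had at least 1 count in at least 1 library. Of these, 8 passed the filter on low counts in each arm of the experiment, and IGF1 and IGFBP2 did not.

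IGF ligands circulate and sit in tissue bound to IGF binding proteins, which hold them away from their receptor, a tyrosine kinase that signals through insulin receptor substrates, PI3K and AKT. PAPPA is a secreted metalloproteinase that cleaves IGFBP4 and IGFBP5, which releases the bound ligand, and stanniocalcins block it. Fibroblasts secrete several of these proteins, and IGFBP3 is a known TGFβ-responsive gene.

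The cells were CRL-4001 fibroblasts, a telomerase-immortalised human skin line, carrying a reporter in which mNeonGreen follows IL11. In the CRISPRko arm the cells carried Cas9, and received a non-targeting guide RNA (H47_Ctrl) or a guide against the transcription factor GLIS3 (H47_KO). In the CRISPRa arm they carried the activator dCas9–VP64 and received a non-targeting guide (VP64_Ctrl) or a GLIS3 guide (VP64_A). The reporter cells were sorted as single-cell clones before they received Cas9 or dCas9–VP64, and the paper does not say whether both arms used the same clone. Guides came by lentivirus, and the cells that carried them were kept as a drug-selected bulk population. Each of the 4 groups was sampled without cytokines (0 h) and after 6, 12 and 24 h with TGFβ and IL-1β at 10 ng/ml each, with 3 libraries for each of the 16 conditions and 48 libraries in all. The labels do not say whether the 3 libraries came from separate cultures, so p-values measure the spread between libraries, which may be technical.

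In the CRISPRa arm the labels conflict. Groups were taken from the sample descriptions, which match the column names of the tables, but the title and the genotype of all 24 CRISPRa libraries name the opposite group. GLIS3 itself averaged between 22.8 and 34.3 counts per 1000000 (CPM) over the 4 times in VP64_A and between 2.22 and 4.60 CPM in VP64_Ctrl, so the descriptions go with the GLIS3 levels and the titles go against them. Reading the groups by title would turn every VP64_A against VP64_Ctrl direction given here. In the CRISPRko arm, GLIS3 averaged 1.88, 5.22, 3.03 and 3.03 CPM in H47_Ctrl at the 4 times and 0.298, 1.49, 1.32 and 1.30 CPM in H47_KO, with no overlap between the groups at any time.

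Library depth ranged from 2321990 to 10661000 estimated counts, with a median of 5139646. Libraries were compared by the share of counts in their 50 most counted genes and by their TMM scaling factor. Furthest apart were VP64_Ctrl 0 h replicate 3 (23.1%, 1.84), H47_KO 0 h replicate 3 (30.7%, 1.503) and H47_KO 24 h replicate 3 (31.4%, 1.51). VP64_Ctrl 0 h replicates 1 and 2 (32.6%, 1.32 and 34.9%, 1.21) and H47_Ctrl 6 h replicate 1 (33.8%, 1.34) lay in the same direction. VP64_Ctrl at 0 h is the baseline of that group's changes and of the 0 h difference from VP64_A. The part of this shift in those results was not tested. Calls on the chosen members that were lost without one of these libraries are named with the gene. Calls on other genes, markers included, were not checked by leaving out libraries. All 10 fibroblast markers were tested in both arms, and VIM averaged over 13408 CPM in every condition. The summed level of the 10 averaged 21606 CPM in VP64_Ctrl at 0 h and 36022 to 40917 CPM at its later times. EPCAM (epithelium) was at 0 in every library, and CDH1, CDH5, DES, KRT5 and MLANA never passed 3 counts in a library. PTPRC reached 17 counts in a library, and PECAM1, PMEL and MYH11 reached 9. Of the 12 markers of other cells, CD68 reached a condition mean of 65.9 CPM and KRT14 one of 67.4 CPM. The summed level of the 12 markers ranged from 17.1 to 30.7 CPM in H47_Ctrl, from 29.7 to 54.3 CPM in H47_KO, from 34.2 to 88.1 CPM in VP64_Ctrl and from 56.3 to 115 CPM in VP64_A libraries. In the mean over the 4 times, edgeR called 3 of the 10 fibroblast markers between H47_KO and H47_Ctrl, against 3.07% of all genes. These were DCN at log2 -1.30, COL3A1 at -0.61 and S100A4 at 0.70. Between VP64_A and VP64_Ctrl it called 9, all but VIM, against 18.4% of all genes. Among them were COL1A1 at 1.14, PDGFRA at 1.10, S100A4 at -1.13 and LUM at -0.82. Of the other-cell markers, CD68 differed by 0.68 in H47_KO and by -0.76 in VP64_A, and KRT14 by 2.80 in VP64_A. The part of either marker list in the differences between groups was not tested, and in bulk RNA fewer cells of a type and less RNA per cell cannot be told apart. As a check of the stimulus, the TGFβ-responsive genes CTGF, SMAD7 and SKIL and the IL-1β-responsive genes IL6, IL8 and NFKBIA all rose at 24 h in both control groups.

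Levels are compared between genes as length-corrected TPM. IGFBP3 had the highest median over the 48 libraries, 1863 TPM (654 to 6670). IGFBP7 followed with 516 TPM (209 to 1016), then IGFBP6 with 355 TPM (189 to 572) and IGFBP5 with 215 TPM (19.7 to 446). The ranges of IGFBP7, IGFBP6 and IGFBP5 overlapped, so their order did not hold in every library. IGFBP4 had a median of 44 TPM (25 to 137). The protease and the receptor were far below the binding proteins, with 1.52 TPM for PAPPA (0.419 to 9.28) and 1.64 TPM for IGF1R (0.594 to 5.25), and these 2 ranges overlapped.

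Both ligands were low or undetected. IGF2 had a median of 0.461 TPM and was counted in 30 of 48 libraries, with at most 122 counts. IGF1 had 5 counts in all, spread over 3 libraries. IGFBP2 had 1 count in 1 library. A count of 0 allows up to 3 counts, which is 0.281 CPM in the deepest library and 1.29 CPM in the shallowest, and these limits cover counting error only. The readthrough gene INS-IGF2 was at 0 in every library and the antisense gene IGF2-AS had at most 5 counts. Antisense PAPPA-AS1 had at most 25 counts, and the sources used here do not say whether counting used strand.

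**Figure D1:**
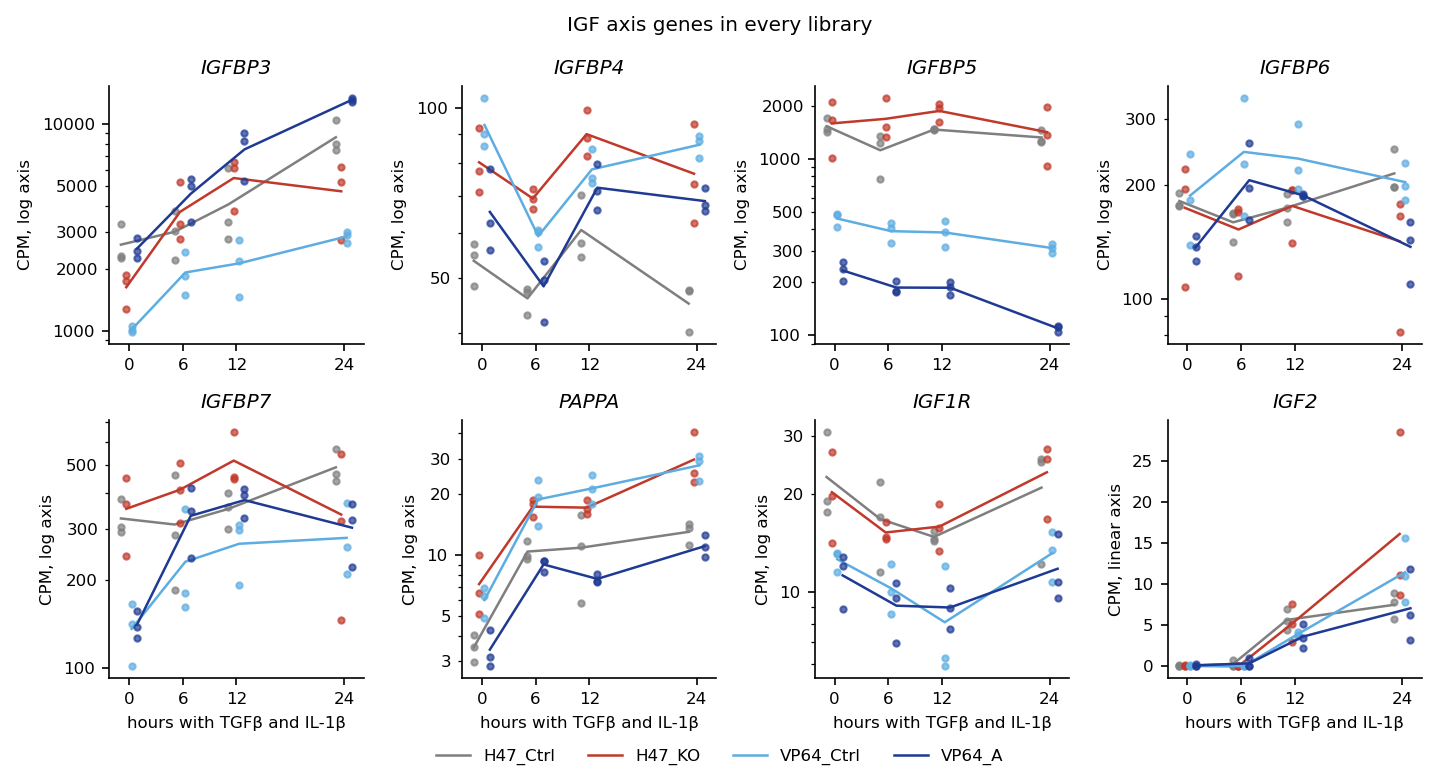
Each panel shows 1 gene in CPM (log axis, except IGF2 on a linear axis) against hours with TGFβ and IL-1β. Points are the 48 libraries, shifted sideways by group, and lines join the means of 3 libraries. In VP64_A libraries IGFBP3 sits above and IGFBP5 and PAPPA sit below VP64_Ctrl at every time, and IGF2 is near 0 at 0 and 6 h in all groups.

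The 4 genes called between perturbed and control cells at a single time are on 4 chromosomes. In GENCODE on GRCh38, the build that the submitters' notes also name, IGFBP3 spans chr7:45912245-45921874 on the minus strand, PAPPA chr9:116153791-116402321 on the plus strand and IGFBP4 chr17:40443450-40457725 on the plus strand. IGFBP5 spans chr2:216672105-216695549 on the minus strand and lies beside IGFBP2, which is at chr2:216632828-216664436 on the plus strand. IGFBP2 was all but uncounted while its neighbour IGFBP5 reached 15090 counts in a library. The 250 bases before the annotated start of each of the 4 genes are shown because GLIS3, the perturbed factor, and the AP-1, SMAD and TEAD factors bind DNA. They come from RefSeq on GRCh38.p14, 5′ to 3′ on the gene's own strand, with matches to the searched motifs in capitals.
IGFBP3 (chr7:45921273-45921522, minus strand): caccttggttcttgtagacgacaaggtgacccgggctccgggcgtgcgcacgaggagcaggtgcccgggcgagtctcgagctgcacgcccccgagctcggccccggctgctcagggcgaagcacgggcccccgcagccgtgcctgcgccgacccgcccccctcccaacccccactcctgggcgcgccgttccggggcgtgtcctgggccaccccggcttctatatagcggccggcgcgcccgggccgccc
PAPPA (chr9:116153541-116153790, plus strand): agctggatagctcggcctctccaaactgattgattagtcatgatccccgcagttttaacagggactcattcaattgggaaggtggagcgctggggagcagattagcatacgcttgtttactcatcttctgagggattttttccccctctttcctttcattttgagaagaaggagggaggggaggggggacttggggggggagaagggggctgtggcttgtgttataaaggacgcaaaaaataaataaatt
IGFBP4 (chr17:40443200-40443449, plus strand): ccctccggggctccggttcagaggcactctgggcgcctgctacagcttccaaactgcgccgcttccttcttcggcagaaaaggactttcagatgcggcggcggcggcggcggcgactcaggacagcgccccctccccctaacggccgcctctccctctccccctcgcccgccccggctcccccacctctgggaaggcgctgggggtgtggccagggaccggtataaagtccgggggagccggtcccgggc
IGFBP5 (chr2:216695550-216695799, minus strand): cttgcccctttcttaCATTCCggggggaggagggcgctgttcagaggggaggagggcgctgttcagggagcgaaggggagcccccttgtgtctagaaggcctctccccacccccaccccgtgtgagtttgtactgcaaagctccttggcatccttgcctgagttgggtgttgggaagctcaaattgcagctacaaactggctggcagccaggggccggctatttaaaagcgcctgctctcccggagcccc

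The motifs searched on both strands were TGGGGGGT for GLIS factors, TGANTCA for AP-1, CAGAC for SMAD and CATTCC for TEAD factors, and no match overlapped another. Of 35116 promoter windows of this length, 1.33% held the GLIS letters, 6.57% the AP-1 letters, 38% the SMAD letters and 11.9% the TEAD letters. The windows of IGFBP3, PAPPA and IGFBP4 held none of them. That of IGFBP5 held 1 TEAD match, starting 235 bases before the start. The windows differed in base composition, with 76.0% G or C and 32 CpG dinucleotides before IGFBP3, 71.6% and 24 before IGFBP4, 61.2% and 8 before IGFBP5, and 48% and 5 before PAPPA. The RefSeq start of IGFBP3 lies inside the GENCODE span of that gene, which begins further upstream. RefSeq promoters were found for 8 of the 10 genes.

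The first question was whether activating GLIS3 changed the axis. IGFBP3 was higher, and IGFBP5 and PAPPA were lower, in VP64_A than in VP64_Ctrl at all 4 times. Differences were tested with edgeR's quasi-likelihood test on all 24 libraries of the arm, and a gene was called if its p, adjusted over every gene tested by the method of Benjamini and Hochberg, was under 0.05. At 0 h, 4 of 8 members passed, against 9.41% of all 10980 genes tested. At 6, 12 and 24 h 3 of 8 passed each time, against 3.76%, 4.31% and 4.13% of all genes. Averaged over the 4 times, a comparison added after seeing the data, 5 of 8 members passed against 18.4% of all genes. The median log2 fold change of the 8 members was -0.32, -0.19, -0.14 and -0.46 at 0, 6, 12 and 24 h, beside medians of all genes within 0.1 of 0.

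IGFBP3, the main carrier of IGFs in serum, was at 1006, 990 and 1053 CPM in the VP64_Ctrl libraries at 0 h and at 2260, 2430 and 2812 CPM in those of VP64_A. At 24 h the VP64_Ctrl libraries held 2911, 3008 and 2666 CPM and the VP64_A libraries 13381, 13074 and 12759 CPM. Every VP64_A library was above every VP64_Ctrl library at each of the 4 times. The log2 fold change of IGFBP3 was 1.30 ± 0.26 (SE; edgeR adjusted p = 0.0012) at 0 h, 1.26 ± 0.26 (adjusted p = 0.0022) at 6 h, 1.83 ± 0.27 (adjusted p = 2.0e-05) at 12 h and 2.19 ± 0.27 (adjusted p = 1.0e-06) at 24 h, which is 4.57-fold at the last time.

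IGFBP5, a matrix-associated binding protein and a PAPPA substrate, went the other way. At 0 h it was at 484, 482 and 410 CPM in VP64_Ctrl and at 238, 260 and 202 CPM in VP64_A. At 24 h it was at 314, 330 and 294 CPM in VP64_Ctrl and at 105, 111 and 114 CPM in VP64_A. The groups did not overlap at any time. The log2 fold change of IGFBP5 was -0.98 ± 0.16 (edgeR adjusted p = 9.0e-05) at 0 h, -1.06 ± 0.16 at 6 h, -1.04 ± 0.16 at 12 h and -1.51 ± 0.17 (edgeR adjusted p = 1.1e-07) at 24 h.

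PAPPA was at 6.86, 4.89 and 6.29 CPM in the VP64_Ctrl libraries at 0 h and at 2.83, 3.14 and 4.28 CPM in the VP64_A libraries. At 24 h the values were 29.2, 23.3 and 31 CPM in VP64_Ctrl and 12.5, 11 and 9.79 CPM in VP64_A. All VP64_A libraries were below all VP64_Ctrl libraries at each time. The log2 fold change of PAPPA was -0.84 ± 0.24 (edgeR adjusted p = 0.022) at 0 h, -1.10 ± 0.23 (adjusted p = 0.0018) at 6 h, -1.49 ± 0.23 (adjusted p = 3.3e-05) at 12 h and -1.35 ± 0.22 (adjusted p = 7.1e-05) at 24 h. The call at 0 h was lost without VP64_A replicate 1 or 2 or VP64_Ctrl replicate 1 or 3 (edgeR adjusted p of 0.14, 0.073, 0.095 and 0.066). With limma on log2(TPM + 1) PAPPA did not pass at 0 and 6 h.

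IGFBP4, the other PAPPA substrate, fell at 0 h, from 85.8, 89.8 and 104 CPM in VP64_Ctrl to 62.6, 77.8 and 56.0 CPM in VP64_A, without overlap. Its log2 fold change was -0.51 ± 0.14 (edgeR adjusted p = 0.016), and the call was lost without VP64_A replicate 1 or 3 or VP64_Ctrl replicate 3 (adjusted p of 0.076, 0.10 and 0.11). At 6, 12 and 24 h IGFBP4 had log2 fold changes of -0.29, -0.11 and -0.34, none of which passed. Its groups did not overlap at 6 and 24 h and overlapped at 12 h. In the mean over the 4 times IGFBP4 was called lower in VP64_A (-0.31 ± 0.07, edgeR adjusted p = 0.0020). IGFBP6, which prefers IGF2, had -0.46, -0.25, -0.32 and -0.58 at the 4 times, and with edgeR on the arm it passed in the mean over them (-0.40 ± 0.11, adjusted p = 0.0090) and at no single time. IGFBP6 was called at 0 h with limma on either TPM scale, and at 24 h with limma on log2(TPM + 1) and with edgeR on only the libraries compared. IGFBP7, a low-affinity relative, and IGF1R passed at no time by any of these tests, with log2 fold changes between 0.05 and 0.52 for IGFBP7 and between -0.17 and 0.16 for IGF1R. IGF2 had at most 4 counts in any CRISPRa library at 0 or 6 h, and at 12 and 24 h its log2 fold changes were -0.16 and -0.67, with overlapping groups.

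**Figure D2:**
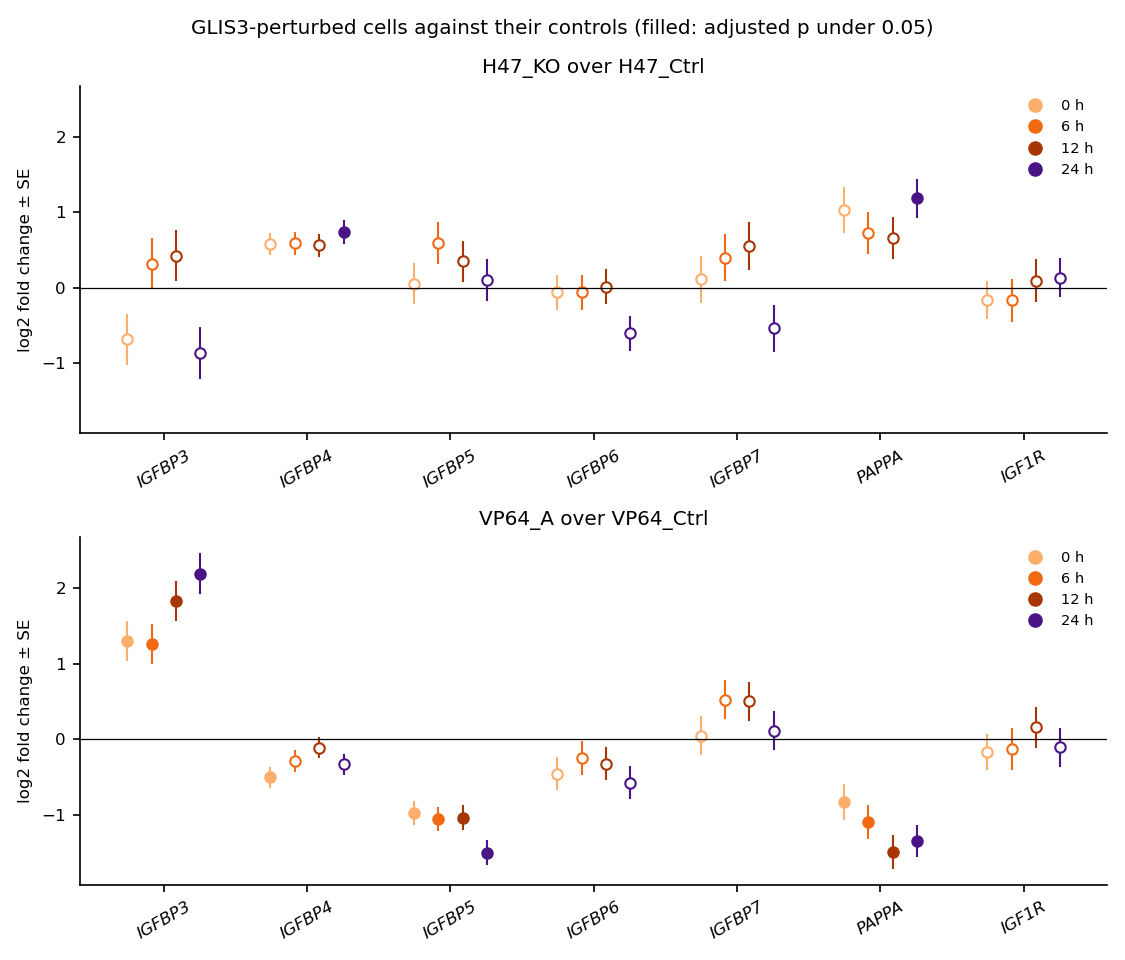
Log2 fold change with its standard error for 7 genes at 0, 6, 12 and 24 h, H47_KO over H47_Ctrl above and VP64_A over VP64_Ctrl below. Filled points passed an adjusted p of 0.05. IGFBP3, IGFBP5 and PAPPA are filled at all 4 times in the lower panel, and only IGFBP4 and PAPPA at 24 h are filled in the upper panel.

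The second question was whether targeting GLIS3 in the CRISPRko arm changed the same genes. PAPPA and IGFBP4 were higher in H47_KO than in H47_Ctrl, and with edgeR on the arm no other member passed. At 0, 6 and 12 h no member passed in that fit. At those times 2, 3 and 2 of 8 members had an unadjusted p under 0.05, as did 1253, 1228 and 842 of all 10962 genes. In the edgeR fit on the arm, 0.301%, 0.319% and 0.0821% of all 10962 genes tested were called at these times. DESeq2 gave an adjusted p to only 7, 5 and 7 of the 8 members. Of those, DESeq2 called IGFBP4 alone at 0 and 6 h and no member at 12 h. Among all genes with an adjusted p, it called 112 of 7349, 169 of 3311 and 42 of 5861. Limma called 0 members at each of these times. With edgeR on all 48 libraries in one fit IGFBP4 was called at 0 and 6 h, against 37 and 36 of 10962 genes. With no filter on low counts PAPPA was called at 0 h, against 137 of 17425 genes. At 24 h 2 of 8 members passed, against 0.21% of all genes. Averaged over the 4 times, also added after seeing the data, the same 2 genes passed, against 3.07% of all genes. The median log2 fold change of the 8 members at 24 h was 0.12, beside 0.02 over all genes.

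PAPPA at 0 h was at 3.51, 4.02 and 2.97 CPM in H47_Ctrl and at 5.13, 6.49 and 10.0 CPM in H47_KO. At 24 h it was at 13.7, 11.2 and 14.3 CPM in H47_Ctrl and at 23.1, 25.5 and 40.7 CPM in H47_KO. Every H47_KO library was above every H47_Ctrl library at each time. The log2 fold change of PAPPA was 1.03 ± 0.30 at 0 h, 0.72 ± 0.27 at 6 h, 0.66 ± 0.28 at 12 h and 1.18 ± 0.26 at 24 h, with edgeR adjusted p of 0.13, 0.29, 0.53 and 0.037. The mean over the 4 times was 0.90 ± 0.14 (edgeR adjusted p = 1.1e-04).

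IGFBP4 at 24 h was at 47.6, 40.2 and 47.6 CPM in H47_Ctrl and at 73.5, 93.5 and 62.6 CPM in H47_KO, and at 0, 6 and 12 h the H47_KO libraries were likewise all above those of H47_Ctrl. The log2 fold change of IGFBP4 was 0.58, 0.59, 0.56 and 0.74 at the 4 times, with SEs of 0.148 to 0.155, and edgeR's adjusted p was 0.068, 0.091, 0.18 and 0.027. The mean over the 4 times was 0.62 ± 0.08 (edgeR adjusted p = 2.2e-06).

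The 24 h calls in the CRISPRko arm did not hold without some of the libraries. That of PAPPA was lost without any H47_Ctrl library (edgeR adjusted p of 0.16, 0.22 and 0.13 without replicates 1, 2 and 3) or without H47_KO replicate 2 or 3 (0.062 and 0.34). That of IGFBP4 was lost without any H47_Ctrl library (edgeR adjusted p of 0.11, 0.22 and 0.12) or without H47_KO replicate 2 (0.17). H47_KO replicate 3 at 24 h differed from the other 24 h libraries of its arm: the share of counts in its 50 most counted genes lay below the 39% to 46.4% of the others, and its scaling factor above their 0.862 to 1.2.

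IGFBP3 in H47_KO at 24 h was at 6203, 5219 and 2761 CPM against 7962, 10457 and 7443 CPM in H47_Ctrl. The groups did not overlap, but the log2 fold change of -0.87 ± 0.34 did not pass (edgeR adjusted p = 0.38). At 0 h the log2 fold change of IGFBP3 was -0.68 ± 0.34 and at 6 and 12 h it was 0.32 and 0.42, none of which passed. IGFBP5 had log2 fold changes between 0.05 and 0.59, IGFBP6 between -0.60 and 0.01 and IGFBP7 between -0.54 and 0.55 over the 4 times. Those of IGF1R lay between -0.17 and 0.13. IGF2 at 24 h was at 5.71, 8.88 and 7.85 CPM in H47_Ctrl and at 11.1, 28.5 and 8.72 CPM in H47_KO, with overlap.

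PAPPA had its called differences upward in H47_KO and downward in VP64_A, and IGFBP4 upward in H47_KO at 24 h and downward in VP64_A at 0 h. The arms used separate control cells and were fitted apart, and the difference between them was not tested. For all 3 genes the level differed between the arms' own control groups. At 24 h IGFBP5 was at 1320 ± 110 CPM (SD, n = 3) in H47_Ctrl and 312 ± 17.9 CPM in VP64_Ctrl. In the same order PAPPA was at 13.1 ± 1.62 and 27.8 ± 4.03 CPM, and IGFBP4 at 45.1 ± 4.26 and 86.1 ± 3.90 CPM. PAPPA averaged 29.8 CPM in H47_KO and 11.1 CPM in VP64_A at that time. The arm, the Cas9 construct and the cell population cannot be told apart in the differences between the control groups.

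The third question was how the cytokines changed the axis with time. PAPPA rose at 6, 12 and 24 h in all 4 groups, IGFBP3 rose by 24 h in all 4, and IGF2, barely counted before 12 h, was called higher at 12 and 24 h in all 4. IGF2 passed the filter on low counts only through its 12 and 24 h libraries, so its calls there are a description, and the counts of members that follow include it. In H47_Ctrl, 1, 2 and 3 of 8 members passed at 6, 12 and 24 h, against 15.9%, 19.6% and 10.3% of all genes. In H47_KO it was 2, 3 and 3, against 23.9%, 27.4% and 15.8%. In VP64_Ctrl it was 4, 4 and 5, against 28.8%, 26.8% and 16% of all genes. In VP64_A it was 4, 4 and 5, against 17.4%, 19.7% and 13.6%. The comparisons within a group share their 0 h libraries.

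PAPPA in H47_Ctrl went from 3.51, 4.02 and 2.97 CPM at 0 h to 11.8, 9.95 and 9.57 CPM at 6 h. Its log2 fold change at 6 h was 1.56 ± 0.30 in H47_Ctrl, 1.25 ± 0.28 in H47_KO, 1.69 ± 0.22 in VP64_Ctrl and 1.43 ± 0.25 in VP64_A. At 24 h it was 1.89 ± 0.30, 2.04 ± 0.26, 2.22 ± 0.21 and 1.72 ± 0.24 in the same order, and edgeR's adjusted p was at most 2.9e-05. PAPPA libraries at 0 h and 24 h did not overlap in any group. With limma on log2(TPM + 1) PAPPA kept its direction but did not pass at 6 and 12 h in H47_Ctrl, H47_KO and VP64_A, nor at 24 h in H47_Ctrl.

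IGFBP3 rose late in H47_Ctrl, from 3280, 2260 and 2295 CPM at 0 h to 7962, 10457 and 7443 CPM at 24 h, with log2 fold changes of 0.21 ± 0.34 at 6 h and 0.65 ± 0.34 at 12 h that did not pass and 1.72 ± 0.35 at 24 h (edgeR adjusted p = 6.2e-04). In the other 3 groups IGFBP3 passed at every time, with log2 fold changes at 24 h of 1.54 ± 0.34 in H47_KO, 1.49 ± 0.27 in VP64_Ctrl and 2.39 ± 0.27 in VP64_A. The 6 h call was lost in H47_KO without its 6 h replicate 2 (log2 0.93, edgeR adjusted p = 0.076), in VP64_Ctrl without its 6 h replicate 3 (0.72, adjusted p = 0.066), and in VP64_A without its 0 h replicate 1 or 2 or 6 h replicate 2 or 3 (adjusted p of 0.062 to 0.088). With limma on TPM, IGFBP3 did not pass at 6 h in either CRISPRa group or at 12 h in VP64_Ctrl.

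IGF2, the ligand with IGFBP6 as a preferred partner, had at most 3 counts per library at 0 h. In H47_Ctrl it had 0, 1 and 0 counts at 0 h, 0, 4 and 0 at 6 h, 19, 17 and 12 at 12 h and 30, 19 and 33 at 24 h. VP64_Ctrl libraries had 1, 0 and 0 counts at 0 h, none at 6 h, 21, 21 and 13 at 12 h and 73, 24 and 122 at 24 h. Against the 0 h limit of 3 counts per library, the mean of IGF2 at 24 h was at least 13.2-fold higher in H47_Ctrl and 35.6-fold in H47_KO. In VP64_Ctrl the fold was 36.2 and in VP64_A 18.7. These folds bound the 0 h side only and leave out the spread at 24 h, from 8.72 to 28.5 CPM in H47_KO. The level of IGF2 stayed low, between 3.13 and 28.5 CPM in the 24 h libraries.

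IGFBP7 rose at all 3 times in both CRISPRa groups, by a log2 fold change at 24 h of 1.04 ± 0.26 in VP64_Ctrl and 1.11 ± 0.26 in VP64_A (edgeR adjusted p = 0.0049 and 0.0031). In VP64_Ctrl the IGFBP7 call at 6 h (0.77 ± 0.26) was lost without 0 h replicate 3 or 6 h replicate 2 (log2 0.57 and 0.33), that at 24 h without 24 h replicate 1 (0.78, edgeR adjusted p = 0.069), and the libraries overlapped at 6 h. On the TPM scale with limma IGFBP7 did not pass in VP64_Ctrl at any time, turning to -0.042 at 6 h, nor in VP64_A at 24 h. In H47_Ctrl IGFBP7 had a log2 fold change of 0.58 ± 0.31 at 24 h and in H47_KO one of -0.07 ± 0.31, and neither passed.

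IGFBP5 fell at 24 h in VP64_Ctrl by 0.56 on the log2 scale (edgeR adjusted p = 0.015), a call lost without VP64_Ctrl replicate 1 at 24 h (adjusted p = 0.051), and in VP64_A by 1.09 (edgeR adjusted p = 7.5e-06). In the CRISPRko arm its log2 fold change at 24 h was -0.21 in H47_Ctrl and -0.16 in H47_KO, and neither passed. IGFBP4 dipped at 6 h in VP64_Ctrl, from 85.8, 89.8 and 104 CPM to 56.9, 60.3 and 60.9 CPM (log2 -0.65 ± 0.14, edgeR adjusted p = 8.1e-04), and in VP64_A (-0.44 ± 0.14, adjusted p = 0.031). The VP64_A dip of IGFBP4 was lost without 0 h replicate 2 or 6 h replicate 1 or 3 (edgeR adjusted p of 0.18, 0.15 and 0.061). At 24 h IGFBP4 was back at 87.5, 81.7 and 89.1 CPM in VP64_Ctrl. IGF1R and IGFBP6 passed at no time in any group with edgeR on the arm. With limma on either TPM scale IGF1R was called lower in VP64_Ctrl at 6 and 12 h, with edgeR on only the libraries compared, or with no filter, in H47_Ctrl at 12 h, and with the same 2 edgeR settings IGFBP6 was called higher in VP64_A at 6 h.

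**Figure D3:**
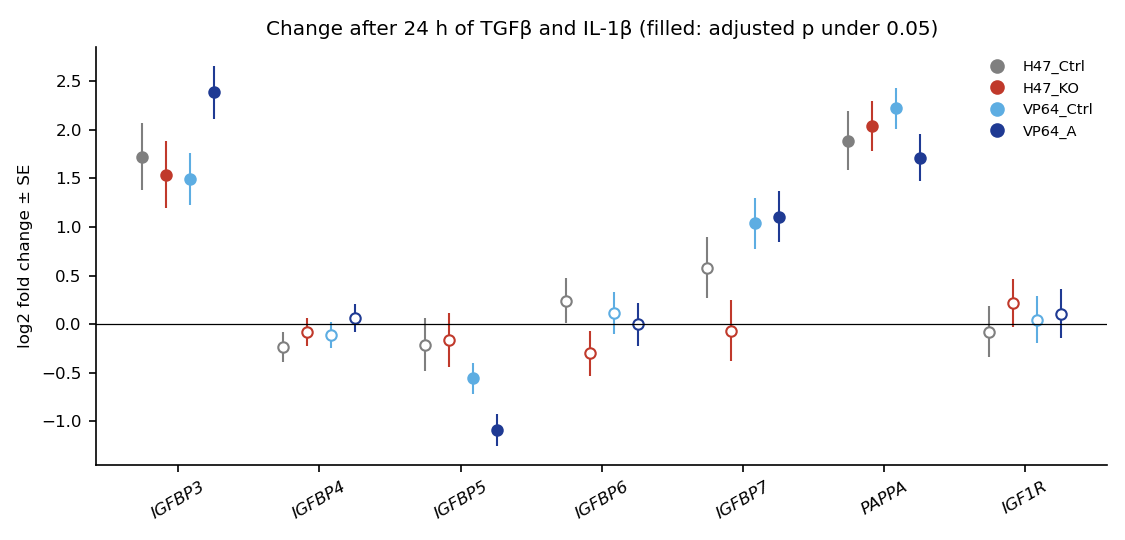
Log2 fold change at 24 h over 0 h with its standard error for 7 genes in the 4 groups of cells. Filled points passed an adjusted p of 0.05. IGFBP3 and PAPPA are filled in all 4 groups, IGFBP5 and IGFBP7 in both VP64 groups, and IGFBP4, IGFBP6 and IGF1R in none.

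The fourth question was whether GLIS3 perturbation changed the response to cytokines itself, tested as the difference between the perturbed and control cells' changes from 0 h. No member passed by edgeR in either arm at any time. DESeq2 and limma also called 0 members. DESeq2 gave an adjusted p to only 5 of 8 members at 6 h in each arm, and to 7 at 12 h for VP64 cells. At 6, 12 and 24 h DESeq2 called 40 of 3736, 0 of 10962 and 1 of 10962 genes for H47 cells. For VP64 cells it called 46 of 2891, 70 of 7574 and 39 of 10552. By edgeR 1, 1 and 0 of 8 members had an unadjusted p under 0.05 at 6, 12 and 24 h for H47 cells, and 0, 0 and 2 for VP64 cells. Among all genes, 869, 709 and 616 of 10962 were under it for H47 cells, and 1035, 1193 and 781 of 10980 for VP64 cells. The share of all genes called by edgeR was 0.00912%, 0% and 0% for H47 cells, and 0.0911%, 0.264% and 0.209% for VP64 cells. For IGFBP3 the difference in change at 24 h between VP64_A and VP64_Ctrl was 0.89 ± 0.37 on the log2 scale and for IGFBP5 it was -0.53 ± 0.23, with edgeR adjusted p of 0.61 and 0.64. For PAPPA it was -0.51 ± 0.32.

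The mix of binding proteins shifted with these changes. On the TPM scale the 6 binding protein transcripts summed to 1872 ± 402 TPM (SD, n = 3) in VP64_Ctrl at 0 h and 2813 ± 62.8 TPM at 24 h, and to 2157 ± 141 and 7255 ± 278 TPM in VP64_A. IGFBP3 made up 44.5% ± 5.4 of that sum in VP64_Ctrl at 0 h and 63.0% ± 3.4 at 24 h. In VP64_A IGFBP3 made up 71.2% ± 3.2 at 0 h and 90.1% ± 1.8 at 24 h. IGFBP5 made up 7.86% ± 0.47 in VP64_Ctrl at 0 h and 0.295% ± 0.024 in VP64_A at 24 h. In the CRISPRko arm IGFBP3 went from 54.7% ± 4.5 to 76.6% ± 1.2 in H47_Ctrl and from 42.5% ± 4.4 to 70.3% ± 1.8 in H47_KO, and IGFBP5 made up 4.68% ± 0.42 and 8.4% ± 1.1 at 24 h in these groups. These shares are descriptions and move with any member of the sum.

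**Figure D4:**
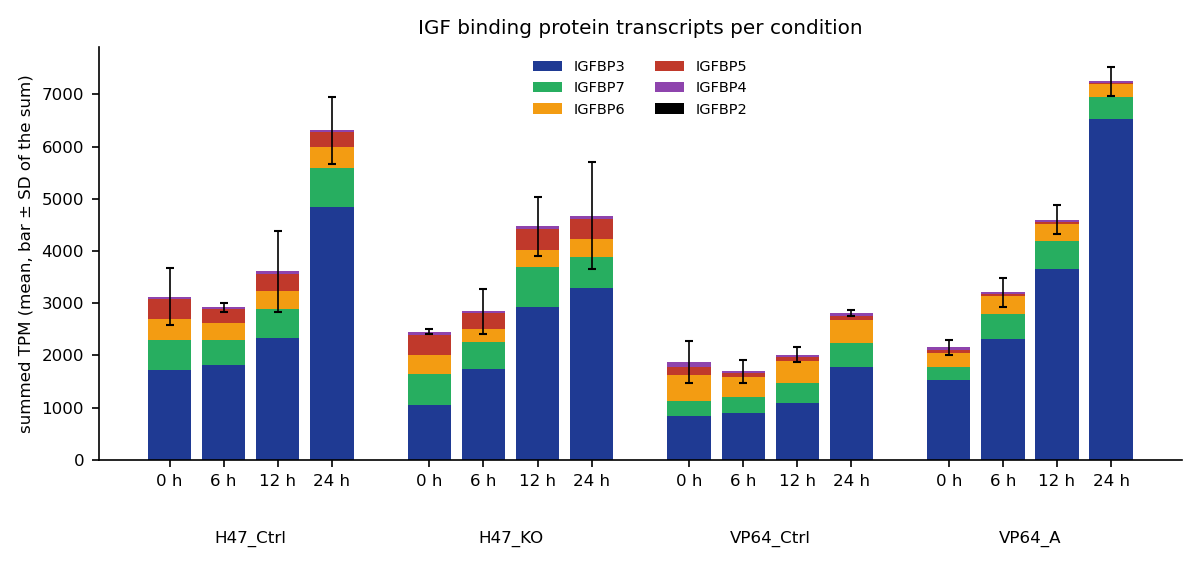
Stacked bars give the mean TPM of each IGF binding protein in the 16 conditions (3 libraries each), with the SD of the summed TPM. IGFBP3 is the tallest part of each bar and reaches 90.1% of the sum in VP64_A at 24 h, and IGFBP2 is too low to see.

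Among other genes of the pathway, taken from lists of receptors, PAPPA's relatives and inhibitors, IGFBP-cleaving proteases, CCN proteins, adaptors, PI3K-AKT-FOXO genes and IGF2 mRNA partners, 36 of 46 were tested in each arm. At 24 h edgeR called none in H47_KO against H47_Ctrl, where 0.21% of all genes were called. There 7 of the 36 had an unadjusted p under 0.05, as did 1096 of all 10962 genes. In VP64_A against VP64_Ctrl 2 rose and 1 fell, against 4.13% of all genes. With cytokines at 24 h, 5 rose and 1 fell in H47_Ctrl, against 10.3% of all genes, and 6 rose and 2 fell in VP64_Ctrl, against 16%. Medians of the 36 log2 fold changes were 0.12, -0.16, 0.11 and -0.01 in these 4 comparisons, beside 0.02, -0.02, 0.01 and -0.00 over all genes. No receptor (INSR, IGF2R), adaptor or IGF2 mRNA partner was called in any of these 4.

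Both PAPPA inhibitors were higher in VP64_A. STC1 at 24 h was at 22.3, 18.5 and 27.1 CPM in VP64_Ctrl and at 198, 186 and 173 CPM in VP64_A, a log2 fold change of 3.01 ± 0.21 (edgeR adjusted p = 3.55e-12). STC1 passed at the earlier times too, by 1.35, 1.30 and 2.26 on the log2 scale. STC2 was at 43.2, 47 and 45.2 CPM in VP64_Ctrl and at 115, 134 and 109 CPM in VP64_A at 0 h (1.40 ± 0.16, edgeR adjusted p = 1.0e-07), and its log2 fold change was 0.62 ± 0.15 at 24 h (adjusted p = 0.013). Neither STC1 nor STC2 was called between H47_KO and H47_Ctrl at any single time, with STC1 at -0.18 ± 0.21 and STC2 at 0.44 ± 0.15 at 24 h. In the mean over the 4 times STC2 was called higher in H47_KO (0.34 ± 0.075, edgeR adjusted p = 0.0055) and STC1 was not (0.07 ± 0.11).

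With cytokines the mean of STC1 was highest at 12 h in all 4 groups, and in H47_KO and VP64_Ctrl its 6 and 12 h libraries overlapped. In H47_Ctrl its libraries held 4.86, 5.31 and 5.94 CPM at 0 h, 106, 74.2 and 76.2 CPM at 12 h and 21.9, 21 and 26.4 CPM at 24 h. The change of STC1 from 0 to 24 h was larger in VP64_A than in VP64_Ctrl by 1.66 ± 0.29 on the log2 scale (edgeR adjusted p = 0.0042).

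**Figure D5:**
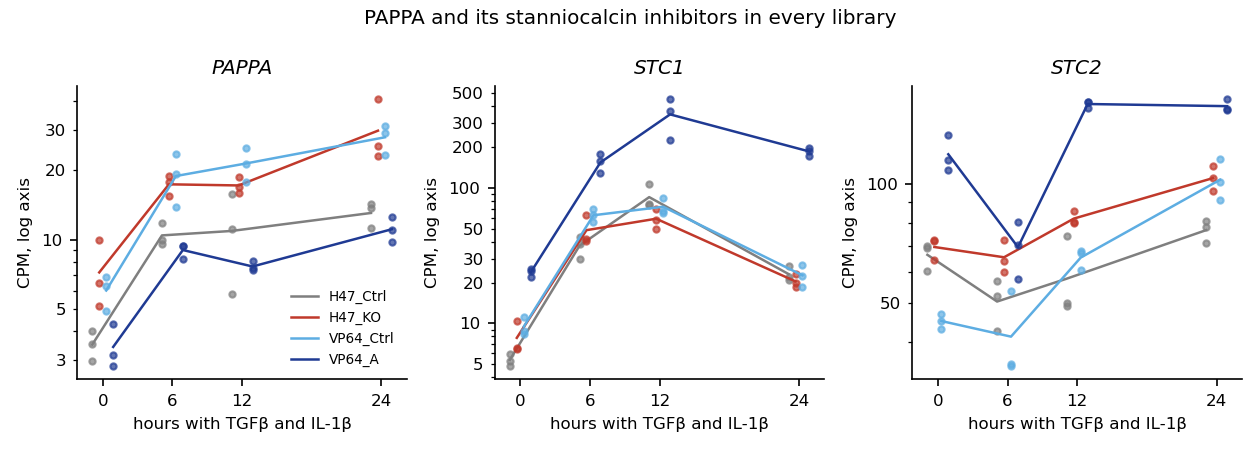
PAPPA and its inhibitors STC1 and STC2 in CPM (log axis) against hours with TGFβ and IL-1β. Points are libraries, shifted sideways by group, and lines join means of 3. PAPPA is lower, and STC1 and STC2 are higher, in each VP64_A mean than in the VP64_Ctrl mean of the same time.

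The CCN proteins, matrix proteins that carry an IGFBP-like domain, split. NOV (CCN3) fell at 24 h in both control groups, by 1.47 on the log2 scale in H47_Ctrl and by 1.29 in VP64_Ctrl, and was lower in VP64_A than in VP64_Ctrl at all 4 times (log2 -1.66 ± 0.22 at 24 h, edgeR adjusted p = 3.6e-06). CTGF (CCN2) rose at 24 h by 1.52 ± 0.34 in H47_Ctrl and 2.59 ± 0.26 in VP64_Ctrl. CYR61 (CCN1) rose by 0.93 ± 0.31 and 1.66 ± 0.26, with an edgeR adjusted p of 0.0496 in H47_Ctrl. ADAM12, a protease that cleaves IGFBP3 and IGFBP5, rose by 2.07 ± 0.25 and 2.19 ± 0.25. FOXO3, a transcription factor held inactive by AKT, rose by 1.96 ± 0.21 and 1.10 ± 0.22. PIK3R1, a regulatory subunit of PI3K, fell in VP64_Ctrl (log2 -1.41 ± 0.49, edgeR adjusted p = 0.047) and was not called in H47_Ctrl. Its VP64_Ctrl libraries held 4.30, 3.23 and 7.19 CPM at 0 h, the last in replicate 3, which stood furthest apart. At 24 h PIK3R1 had 12, 7 and 12 counts in VP64_Ctrl.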

How the data were processed

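Bulk RNA-seq of 48 fibroblast libraries was analysed. The authors trimmed reads, removed ribosomal reads, used STAR on GRCh38 and estimated gene levels by Salmon; annotation, versions and strand are not given in the sources used here. They deposited 2 gene tables: estimated counts (6.38% of values not whole, rounded here) and TPM, which corrects for transcript length. CPM is computed here with TMM scaling. Each arm (24 libraries, 8 conditions) was fitted with edgeR 4.0.16 in R 4.3.3 (quasi-likelihood, genes of at least 10 counts by filterByExpr, total minimum 15), and adjusted p is Benjamini-Hochberg over all genes tested. Alternatives used DESeq2 1.42.0, limma 3.58.1 on log2(TPM + 1) or log2(TPM + 0.1), and other filters, scalings and sets of libraries. Replicate numbers came from the titles. A library total of 2321990 to 10661000 counts sets the precision, and a count of 0 allows 3. Members and lists were chosen with earlier results of these data known. Other axis genes were named if called at 24 h between perturbed and control cells or in both control groups. PIK3R1 was added after its values were seen. Older symbols in the tables were matched through RefSeq synonyms.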

Additional observations from a re-analysis of the deposited data

How the results depend on the processing

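The 2 calls in H47_KO against H47_Ctrl became 4 with DESeq2 and 4 with all 48 libraries in one fit, 3 with no filter on low counts, and 0 with only the libraries compared, 0 with limma on log2(TPM + 1) and 0 with limma on log2(TPM + 0.1). Leaving out 1 library gave 0 to 2 calls. The 13 calls in VP64_A against VP64_Ctrl ranged from 11 to 14 over all alternatives. Of the single-gene results under these alternatives, 711 kept direction and call, 72 kept direction but lost the call (18 and 14 with limma at a pseudocount of 1 and 0.1, 29 with 1 library left out, 7 with only the libraries compared, 2 with no filter and 2 with all libraries), and 2 reversed: IGFBP7 in VP64_Ctrl at 6 h over 0 h was -0.042 with limma on log2(TPM + 1) and -0.042 with limma on log2(TPM + 0.1). Unlike TMM scaling, the TPM scale moved the median of all genes, by -0.81 to 0.54 over the comparisons, so its log2 fold changes stand relative to that shift. Tests of the difference in response that missed the threshold do not show equal responses. With the replicate block, H47_KO against H47_Ctrl had 2 calls and no call on a member changed. Of 24 same-numbered pairs, 4 had a correlation over 0.1 (range -0.053 to 0.14) and 10 correlated best with their own number. Such values show little pairing by number but cannot exclude it. The cause of the changes between settings was not tested. Depth limits IGF1, IGF2 before 12 h and IGFBP2.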

Other observations

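Over the 8 condition means of each arm, the genes whose log2 CPM profile was most like a member's, by the lower Pearson r of the 2 arms among 10691 genes, are given as a description. For IGFBP3 they were PTTG1IP (r = 0.988 for H47 and 0.967 for VP64 cells), TFRC (0.935 and 0.985) and PDCD5 (0.920 and 0.922). For PAPPA they were PIM2 (0.928 and 0.972), ABLIM3 (0.901 and 0.912) and ABCA1 (0.898 and 0.891). For IGFBP5 they were NDNF (0.841 and 0.806), ABCB1 (0.786 and 0.935) and APLP2 (0.749 and 0.761). The points of an arm share libraries and the time course.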
